A study of Mus musculus with 38 samples.

Results

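Genes that drive cell division were followed in the livers of mice fed propiconazole, triadimefon or phenobarbital. The set held 40 genes, chosen by their known role in the cell cycle, and 39 of them were among the 17729 genes that could be tested on the arrays. Ccnb1, the cyclin B1 gene, had no probe set annotated to it alone and was not analysed here. Each gene was read from 1 probe set, the one with the highest mean over all 38 arrays. By role, 4 of the measured members act in G1 and at the entry to S phase, 12 in S phase (9 in replication licensing and at the fork, 3 in deoxynucleotide supply) and 23 from G2 to cytokinesis. These 23 are called mitotic genes here.

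Male CD-1 mice, an outbred strain, 6 to 8 weeks of age, were fed their diets for 4 or 30 days, and liver RNA was measured on Affymetrix mouse genome arrays. The conazole experiment had 3 animals in each of 6 groups, which received control feed, 2500 ppm propiconazole or 1800 ppm triadimefon (spelled tridimefon in the labels) for 4 or for 30 days. The phenobarbital experiment had 5 animals in each of 4 groups, which received control feed or 850 ppm phenobarbital for the same times. Propiconazole and triadimefon are triazole fungicides, and phenobarbital is a barbiturate known to induce drug metabolism and growth of the rodent liver. Average intakes given in the labels were 349.6 ± 46.7 mg/kg/day for propiconazole, 257.1 ± 33.5 mg/kg/day for triadimefon and 97.2 ± 5.9 mg/kg/day for phenobarbital, so doses were not matched between compounds. Both triazoles were compared with the same control animals, and phenobarbital with the controls of its own experiment. The question asked of this gene set was which parts of the division programme differed from control after each diet, and whether S phase and mitotic genes moved alike.

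Hepatocytes of an adult liver are mostly quiescent, but they can re-enter the cycle after tissue loss and under mitogens, of which phenobarbital is a known example in rodents. D-type and E-type cyclins with their kinases release E2F factors from the pocket proteins, and E2F then drives the genes of licensing, replication and nucleotide supply. The genes of G2 and mitosis follow later under FOXM1, MYB and NF-Y. Many of the late promoters carry a cell cycle genes homology region (CHR) and CCAAT boxes, where the DREAM complex represses them in resting cells and NF-Y activates them through the CCAAT boxes.

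Promoter sequences are shown for 3 mitotic and 2 S phase members because the values below are described separately for these classes. RefSeq promoter windows of mouse build GRCm38.p6, from 250 bases before to 50 bases after the gene start, were found for 30 of the 40 members, of which 18 were mitotic, 10 S phase and 2 G1 genes. Both strands were searched for the CHR core TTTGAA, the CCAAT box CCAAT and the E2F site TTTNNCGC (N is any base). No motif contains another. The 200 bases before the start are printed 5′ to 3′ on the gene's strand, and capitals mark the matches on either strand, so ATTGG is a CCAAT box and TTCAAA a CHR core on the opposite strand. Where E2F matches overlap they run together.
Ccnb2 promoter, chr9:70421555-70421754, minus strand: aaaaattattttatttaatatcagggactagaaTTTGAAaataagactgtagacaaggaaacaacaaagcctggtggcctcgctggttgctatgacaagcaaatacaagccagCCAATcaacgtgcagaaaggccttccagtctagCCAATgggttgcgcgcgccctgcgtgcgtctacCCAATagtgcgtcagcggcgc
Mki67 promoter, chr7:135716380-135716579, minus strand: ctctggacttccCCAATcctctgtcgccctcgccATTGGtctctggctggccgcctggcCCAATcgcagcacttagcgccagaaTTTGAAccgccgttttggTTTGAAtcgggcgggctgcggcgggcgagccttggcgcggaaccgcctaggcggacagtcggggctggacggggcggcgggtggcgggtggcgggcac
Kif11 promoter, chr19:37376182-37376381, plus strand: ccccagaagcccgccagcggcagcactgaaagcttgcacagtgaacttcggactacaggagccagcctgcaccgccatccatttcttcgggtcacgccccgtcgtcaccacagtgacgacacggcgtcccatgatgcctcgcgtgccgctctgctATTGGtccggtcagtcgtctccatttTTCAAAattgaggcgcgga
Mcm5 promoter, chr8:75109309-75109508, plus strand: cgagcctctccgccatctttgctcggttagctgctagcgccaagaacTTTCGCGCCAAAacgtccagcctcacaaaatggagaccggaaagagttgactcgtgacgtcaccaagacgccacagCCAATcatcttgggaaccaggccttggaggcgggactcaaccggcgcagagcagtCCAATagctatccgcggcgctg
Mcm6 promoter, chr1:128359706-128359905, minus strand: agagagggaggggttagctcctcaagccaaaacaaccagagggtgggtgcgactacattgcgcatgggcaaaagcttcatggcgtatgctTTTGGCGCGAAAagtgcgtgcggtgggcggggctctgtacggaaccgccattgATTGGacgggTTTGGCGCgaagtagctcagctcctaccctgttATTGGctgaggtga
Ccnb2, cyclin B2, had a CHR core at -167 and CCAAT boxes at -87, -54 and -21 in the printed stretch, counted in bases from its start. Another CHR core lay past that stretch, at base 5 after the start. Mki67, which encodes the Ki-67 protein that coats mitotic chromosomes, had 2 CHR cores and 3 CCAAT boxes, and the motor protein gene Kif11 had 1 of each. The helicase subunit genes Mcm5 and Mcm6 had 2 and 3 E2F matches and no CHR core in the printed stretch. Over the whole windows, the CHR core stood in 13 of 18 mitotic members (72.2%) and in 1 of 10 S phase members (10%, Mcm2). The share was 20.2% over all 27025 genes with a promoter window. The E2F letters stood in 6 of 10 S phase members (60%) and in 1 of 18 mitotic members (5.56%, Cdk1). Over all genes with a window the share was 5.93%. CCAAT boxes were found in 16 of 18 mitotic members (88.9%) and 8 of 10 S phase members (80.0%), against 41.1% of all genes with a window. All 13 mitotic members with a CHR core also had a CCAAT box. These are matches of letters, and no binding was measured.

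Values are log2 of the quantile-normalised intensity plus 16, so the lowest possible value is 4. The level taken as background was 6.13 on this scale, an intensity of 54.2. It was taken from 39 olfactory receptor genes, whose means over the arrays lay at or under it at the 95th percentile, since such genes are not expected in liver. A member was called changed at a Benjamini-Hochberg adjusted p under 0.05 over all 17729 genes, from limma with all 10 groups in 1 fit. Folds are on the log2(intensity + 16) scale and understate changes of dim genes. A fold is not given where both group means lay below background, and it is a lower bound where every array of the lower group lay below background. In whole liver, a change in the number of dividing cells and a change in RNA per cell cannot be told apart. The labels call the arrays of a group biological replicates.

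The 8 measured hepatocyte markers had no call in any compound comparison, and their summed intensity lay between 66566 and 68334 on the day 4 conazole controls and between 62682 and 71250 on the day 4 propiconazole arrays. Day 4 propiconazole replicate 2 stood apart from the other 37 arrays. Its Gapdh control probe sets read 6.39 log2 units higher at the 3′ than at the 5′ end, against -0.37 to 0.22 on the other arrays. The same difference for Actb was 1.84, against 0.28 to 1.30, and its median deposited intensity was 12.5, against 19.2 to 36.1. The day 4 propiconazole counts are therefore given with and without it. The Actb difference was 0.62 to 1.84 over all day 4 arrays of the conazole experiment, against 0.28 to 0.47 on all other arrays. It thus also went with day in that experiment.

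Of the 39 measured members, 5 were above background on all 38 arrays (Ccnd1, Cdk4, Mcm7, Pcna and Cks2) and 6 on none (Ccne2, Cdc6, Cdc25c, Bub1, Bub1b and Kif23). The S phase members were above background on a median of 23.5 arrays (n = 12 genes), close to the median of 23 over all genes, and the mitotic members on a median of 2 arrays (n = 23 genes). Most mitotic members therefore lay in the range where the arrays could not separate their signal from that of genes silent in liver.

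After 4 days of propiconazole, 10 of 39 members were called higher and 1 lower, or 28.2% against 13.9% of all genes called in either direction. By direction, 7.36% of all genes were called higher and 6.53% lower. At an unadjusted limma p under 0.05 there were 17 members with propiconazole, 11 with triadimefon and 18 with phenobarbital. The share of all genes at that unadjusted cut was not counted, here or in the later unadjusted counts. The counts therefore do not rank the compounds. The called members were Mcm2, Mcm4, Pcna, Gmnn and Rrm2 of S phase and Aurka, Mki67, Birc5, Kif11 and Kif20a of mitosis on the higher side, and Tyms on the lower. The median difference was 0.67 over the 12 S phase members and 0.78 over the 23 mitotic members, against 0.03 over all genes, and 34 of 39 members lay above 0, against 56.4% of all genes. Without propiconazole replicate 2, 5 members were called, all higher. Without replicate 1 the count was 6, without replicate 3 it was 16, and it was 7 without any 1 of the 3 controls. No member was called when the fit held only the 6 arrays compared, where 8 genes were called in all, or when arrays were weighted by quality, where 98 were. On the values as deposited, with no scaling between arrays, 1 member was called higher and 1 lower with propiconazole, and 5 members were called higher with triadimefon. In that setting the median of all genes was -0.16 for propiconazole and 0.17 for triadimefon, and the median of the members exceeded it by 0.45 and 0.25.

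Phenobarbital at 4 days raised 3 members, all mitotic (Ccnb2, Birc5 and Kif20a), or 7.69% against 0.677% of all genes called in either direction and 0.530% called higher. The median difference was 0.70 over the mitotic members and 0.36 over the S phase members, with 0 for all genes, and 33 of 39 members lay above 0, against 49.2% of all genes. The count of phenobarbital calls was 6 without treated replicate 4, and 12 when arrays were weighted by quality. Triadimefon at 4 days raised 1 member, Aurka, or 2.56% against 3.75% of all genes called in either direction and 2.10% called higher. The share of members was thus below that of all genes in either direction and slightly above that of genes called higher. The count was 2 without triadimefon replicate 3 and 3 without propiconazole replicate 2 in the shared fit. The median difference was 0.37 over the mitotic and 0.28 over the S phase members. Whether S phase and mitotic members differed from each other in these medians was not tested. Groups of treated and control arrays did not overlap, with the treated higher, for 11 members under propiconazole (9.37% of all genes), 12 under triadimefon (10.5% of all genes) and 8 under phenobarbital (2.88% of all genes). Without propiconazole replicate 2 the first count was 15, against 14.1% of all genes. No member was lower without overlap at day 4, against 6.85%, 8.90% and 2.22% of all genes for the 3 compounds in the same order.

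**Figure D1:**
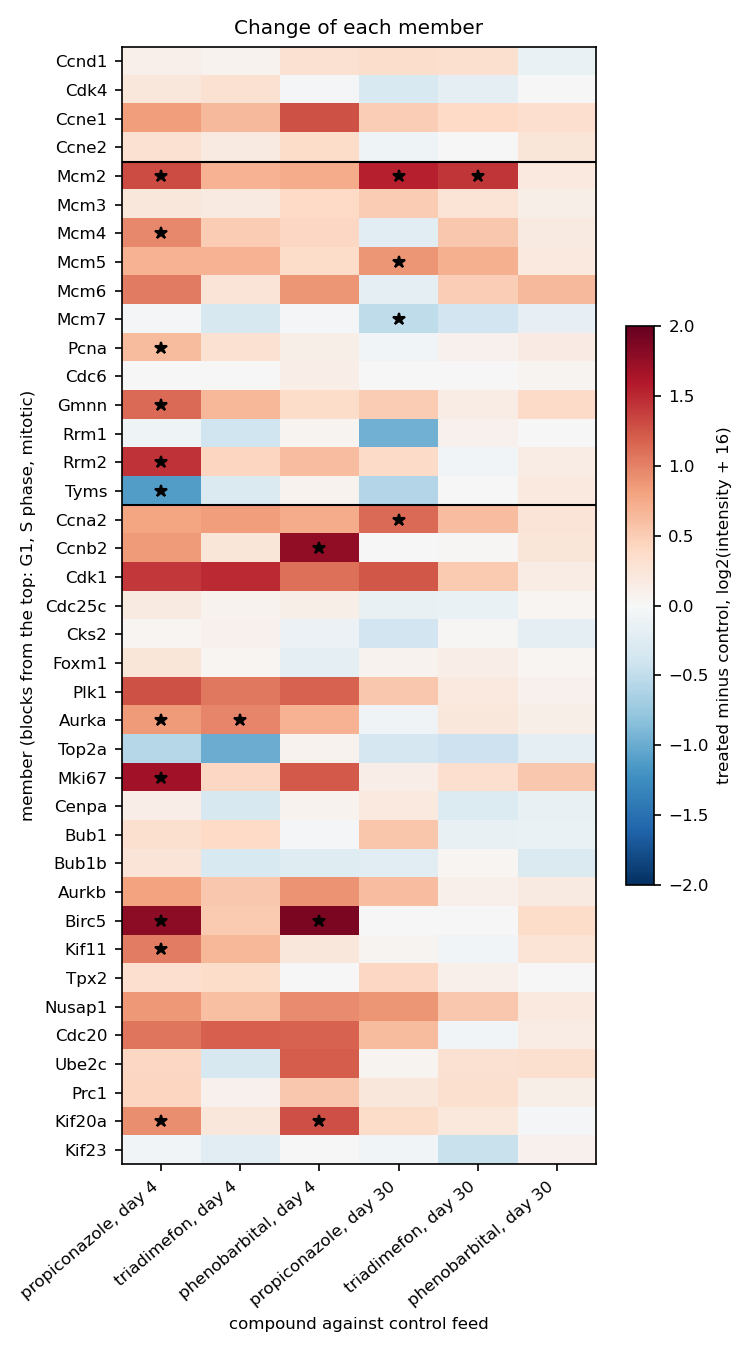
Difference of each of the 39 members from its own control, in log2 units, for the 3 compounds at 4 and 30 days, as colour from blue (lower) to red (higher). Rows are members in blocks of G1, S phase and mitotic genes, and stars mark calls. At day 4, 10 members were called higher with propiconazole, 1 with triadimefon and 3 with phenobarbital, and at day 30 the counts were 3, 1 and 0.

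Among the G1 members, none was called in any compound comparison. Ccnd1, cyclin D1, the main link from growth signals to the cycle in hepatocytes, read 8.36, 7.80 and 7.22 on the day 4 conazole controls, 7.91, 7.26 and 8.53 with propiconazole and 7.26, 8.64 and 7.70 with triadimefon. The animals of each group spread over more than a log2 unit and the 3 groups overlapped. The difference was 0.11 ± 0.32 (SE) with propiconazole (adjusted p = 0.89). In the phenobarbital experiment it read 8.66, 8.49, 7.84, 7.59 and 8.46 in controls and 8.32, 8.60, 8.19, 8.93 and 8.52 in treated mice, again overlapping. Values at day 30 were 7.21, 7.44 and 7.53 in conazole controls, 7.89, 7.77 and 7.57 with propiconazole, and 7.25, 7.55 and 8.33 with triadimefon. The day 30 phenobarbital controls read 8.24, 7.99, 8.38, 8.05 and 7.93 and the treated mice 7.98, 8.19, 7.97, 7.82 and 7.95. The means of the 10 groups lay between 7.40 and 8.51, and no difference was called.

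Ccne1, cyclin E1, which with CDK2 starts S phase, showed its largest contrast between the experiments rather than between diets. It read 8.62, 8.02 and 9.20 in day 4 conazole controls, against 6.50, 6.28, 5.17, 4.00 and 6.86 in day 4 phenobarbital controls. Propiconazole mice read 9.29, 9.49 and 9.54 and triadimefon mice 9.16, 9.32 and 9.33 at day 4. Phenobarbital mice read 6.59, 7.35, 7.70, 6.74 and 6.81, a difference of 1.28 ± 0.33 that missed the threshold (adjusted p = 0.0634) with 1 control of the 5 above the lowest treated mouse. Conazole controls at day 30 read 9.44, 9.67 and 9.05, propiconazole 9.66, 9.69 and 10.31, and triadimefon 9.88, 9.86 and 9.63. The day 30 phenobarbital controls read 6.26, 6.40, 7.25, 6.56 and 6.42 and the treated mice 6.62, 6.92, 7.02, 6.92 and 7.08. Over all groups the conazole experiment lay 2.83 log2 units above the phenobarbital experiment for Ccne1 (means 9.40 and 6.57). The gap was 1.80 for Tpx2, 1.48 for Ccna2 and 1.20 for Tyms, each on its brightest probe set. The other Ccne1 probe set showed neither this contrast nor the phenobarbital rise at day 4. Its day 4 means were 4.99 in conazole controls, 5.34 in phenobarbital controls and 5.26 in phenobarbital mice, all below background. The array batch cannot be told apart from the experiment, so levels were compared only within an experiment. The other G1 members, Cdk4 and Ccne2, had day 4 differences between -0.02 and 0.36.

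Of the 9 members that license origins or work at the fork, 4 rose after 4 days of propiconazole. Pcna, the sliding clamp of the replication fork, was clearly above background on every array. It read 8.97, 8.99 and 8.90 in controls and 9.92, 9.75 and 9.08 with propiconazole. The treated animals lay above all controls, with replicate 3 the lowest of them. The rise was 0.63 ± 0.16, or 1.55-fold (adjusted p = 0.00913). Without propiconazole replicate 1 it was 0.46 and missed the threshold (adjusted p = 0.0529). Triadimefon animals read 9.14, 9.54 and 9.08. In the phenobarbital experiment controls read 9.84, 9.72, 9.86, 9.57 and 9.70 and treated animals 9.73, 9.97, 10.01, 9.78 and 9.80, with overlap and no call. Day 30 controls of the conazole experiment read 9.37, 9.38 and 9.38, propiconazole 9.54, 8.85 and 9.55, and triadimefon 9.50, 9.40 and 9.48. The day 30 phenobarbital controls read 9.61, 9.59, 9.68, 9.57 and 9.64 and the treated mice 9.71, 9.59, 9.75, 9.72 and 10.12.

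Gmnn encodes geminin, which blocks relicensing after S phase has begun. Control animals at day 4 read 6.65, 6.25 and 6.63, and propiconazole animals 7.39, 8.62 and 6.92. The groups did not overlap. The rise was 1.13 ± 0.25, or 2.19-fold (adjusted p = 0.00357), and it was still called with any 1 of the 6 arrays left out. With triadimefon Gmnn read 7.11, 7.56 and 6.85, a difference of 0.66 (adjusted p = 0.148). Phenobarbital animals read 7.40, 7.38, 7.55, 7.45 and 7.70 against 6.93, 7.21, 7.14, 7.17 and 7.23 in controls, higher in all 5 mice without a call. At day 30 conazole controls read 6.27, 5.90 and 6.38, propiconazole 6.69, 6.60 and 6.77, and triadimefon 6.16, 6.29 and 6.55. Day 30 phenobarbital controls read 6.73, 6.46, 7.06, 6.89 and 6.96 and treated animals 6.96, 6.91, 7.36, 7.17 and 7.58.

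The MCM genes encode the 6 subunits of the replicative helicase, and they did not move as a block. Mcm4 read 5.77, 6.19 and 6.07 in day 4 controls and 6.56, 7.68 and 6.69 with propiconazole, a rise of 0.97 ± 0.23, or 1.95-fold (adjusted p = 0.00569). The highest value was that of propiconazole replicate 2, and without that animal the difference was 0.61 and not called (adjusted p = 0.0687). Triadimefon mice read 6.24, 6.71 and 6.59. Phenobarbital mice read 6.76, 7.11, 7.37, 6.57 and 6.59 against 6.65, 6.55, 6.24, 6.23 and 6.67. At day 30 the conazole groups read 5.93, 6.23 and 6.50 in controls, 6.11, 5.69 and 6.18 with propiconazole, and 6.84, 6.79 and 6.66 with triadimefon. The day 30 phenobarbital values were 6.33, 6.59, 6.17, 6.46 and 6.62 in controls and 6.76, 6.48, 6.62, 6.42 and 6.74 in treated mice.

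Mcm2 read 5.88, 5.01 and 5.91 in day 4 controls, all below background, and 7.43, 7.51 and 5.75 with propiconazole. Replicates 1 and 2 were high and replicate 3 was inside the control range. The rise of 1.30 ± 0.44, at least 1.70-fold, was called (adjusted p = 0.045), but the call ended when any array other than propiconazole replicate 3 was left out (differences 0.99 to 1.45, adjusted p 0.0523 to 0.213). The other Mcm2 probe set differed by 0.27 and was not called. Triadimefon animals read 5.76, 7.08 and 6.07. Phenobarbital animals read 6.44, 7.19, 7.49, 6.74 and 6.64 against 6.47, 6.37, 5.88, 5.99 and 6.08.

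Mcm6 was the most uneven member between animals. In day 4 controls it read 6.57, 5.37 and 5.79. With propiconazole it read 8.52, 8.34 and 4.00, and with triadimefon 4.00, 8.21 and 6.28, so 2 propiconazole animals and 1 triadimefon animal lay more than a log2 unit above every control, and each group held an animal at the floor. Neither difference was called (propiconazole 1.04 ± 0.82, adjusted p = 0.433). Without propiconazole replicate 3 the difference was 2.52 and called (adjusted p = 0.0103). With phenobarbital it read 7.27, 8.34, 8.23, 7.73 and 7.60 against 7.11, 7.43, 6.93, 6.24 and 7.05, with 1 control above the lowest treated mouse. At day 30 it read 6.13, 5.39 and 5.21 in conazole controls, 5.96, 4.24 and 6.00 with propiconazole, and 7.13, 5.16 and 5.90 with triadimefon. Phenobarbital mice at day 30 read 6.45, 6.34, 7.39, 6.54 and 7.78 against 6.20, 6.45, 5.77, 6.39 and 6.48.

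Mcm5 read 6.15, 6.04 and 5.82 in day 4 controls, 7.12, 6.82 and 6.18 with propiconazole and 6.53, 7.25 and 6.32 with triadimefon. Neither triazole overlapped the controls, and both differences were 0.70 without a call (adjusted p = 0.109 and 0.191). Without propiconazole replicate 3 the former was 0.96 and called (adjusted p = 0.0272). Phenobarbital mice read 6.57, 6.81, 6.81, 6.17 and 6.32 against 5.95, 6.55, 6.23, 6.02 and 6.12. Mcm7 was above background everywhere and flat at day 4, with 8.87, 8.90 and 8.67 in controls, 8.82, 8.97 and 8.53 with propiconazole and 7.97, 8.78 and 8.72 with triadimefon. Its phenobarbital animals read 8.74, 8.87, 9.18, 8.63 and 8.52 against 8.83, 8.80, 8.72, 8.86 and 8.89. Mcm3 had day 4 differences of 0.18 to 0.39 with no call, and Cdc6, the loader of the helicase, was not above background on any array.

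In deoxynucleotide supply, Rrm2 had the clearest propiconazole response of all members by its adjusted p. It encodes the S phase limited subunit of ribonucleotide reductase. Day 4 controls read 5.92, 5.85 and 6.32 and propiconazole animals 7.94, 7.56 and 6.90, all 3 above every control. The rise was 1.44 ± 0.31, or 2.71-fold (adjusted p = 0.00267), and it was called with any 1 of the 6 arrays left out. The 2 other Rrm2 probe sets did not show it. One of them lay at the floor of 4.00 in both groups and the other differed by 0.41. Triadimefon read 6.05, 7.54 and 5.78, where only replicate 2 was high. Phenobarbital animals read 6.69, 7.25, 7.09, 6.40 and 6.68 against 6.01, 6.60, 6.49, 6.00 and 5.94, a difference of 0.61 ± 0.24 with no call (adjusted p = 0.335). Day 30 values were 6.28, 6.32 and 5.93 in conazole controls, 6.67, 6.63 and 6.38 with propiconazole, and 6.38, 5.81 and 6.19 with triadimefon. In the phenobarbital experiment they were 6.12, 5.89, 6.01, 6.47 and 6.03 in controls and 6.08, 6.01, 6.41, 6.08 and 6.71 in treated mice.

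Tyms, thymidylate synthase, was the only member called lower at day 4. It read 5.42, 6.09 and 6.76 in controls and 6.15, 4.00 and 4.78 with propiconazole, with overlap. The difference was -1.11 ± 0.38 (adjusted p = 0.0467), and no call was left without control replicate 2 or 3 or propiconazole replicate 2 or 3 (differences -1.11 to -0.63, adjusted p 0.0906 to 0.345). Both group means, 6.09 and 4.98, lay below background, so no fold is given. On the other Tyms probe sets, also below background, means went from 4.01 to 4.44, from 4.00 to 4.16 and from 4.69 to 4.33. No probe set of any member was called lower when every probe set was tested on its own. Triadimefon mice read 5.73, 6.19 and 5.49. Phenobarbital controls at day 4 read 4.45, 4.64, 4.54, 4.74 and 4.57 and treated mice 4.82, 4.51, 4.69, 4.76 and 4.48, all below background. At day 30 Tyms read 5.63, 6.00 and 6.93 in conazole controls, 5.96, 5.76 and 5.07 with propiconazole and 6.46, 5.49 and 6.65 with triadimefon. The day 30 phenobarbital controls read 5.05, 4.41, 4.52, 4.00 and 4.53 and the treated mice 4.76, 4.43, 4.79, 4.77 and 4.72. Rrm1, the large reductase subunit, had day 4 differences of -0.08 with propiconazole, -0.40 with triadimefon and 0.05 with phenobarbital.

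Of the 8 measured members of G2 and mitotic entry, Aurka rose with both triazoles at day 4 and Ccnb2 with phenobarbital. Aurka encodes the centrosomal kinase Aurora A. It read 4.60, 4.56 and 4.88 in controls, 5.58, 5.69 and 5.33 with propiconazole and 5.79, 5.78 and 5.38 with triadimefon. All 6 triazole animals lay above all 3 controls, and all 9 values lay below background, so no fold is given. The difference was 0.85 ± 0.27 with propiconazole (adjusted p = 0.0311) and 0.97 ± 0.27 with triadimefon (adjusted p = 0.0366). The propiconazole call ended without control replicate 1 or 2 or propiconazole replicate 1 or 2 (adjusted p 0.0527 to 0.105), and the triadimefon call without control replicate 1 or 2 or triadimefon replicate 1 or 2 (adjusted p 0.0989 to 0.139). Phenobarbital animals read 5.78, 6.10, 6.56, 5.06 and 5.70 against 5.22, 5.50, 4.80, 5.0 and 5.18, a difference of 0.70 ± 0.21 with no call (adjusted p = 0.127). At day 30 Aurka read 5.01, 5.71 and 5.28 in conazole controls, 5.34, 5.51 and 4.97 with propiconazole and 5.83, 5.22 and 5.66 with triadimefon. Day 30 phenobarbital controls read 5.02, 4.90, 5.50, 5.20 and 5.01 and treated mice 5.13, 5.13, 5.26, 4.88 and 5.79, and no day 30 difference was called.

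Ccnb2 was dim in untreated liver and rose with phenobarbital. The 5 controls at day 4 read 4.22, 5.21, 4.00, 4.00 and 4.00, and the 5 treated mice 5.96, 5.99, 7.14, 5.25 and 5.93. The groups did not overlap, and replicate 3 was the only array above background. The difference was 1.77 ± 0.33 (adjusted p = 0.00338), and it was called without any 1 of the 10 arrays. Propiconazole mice read 5.87, 5.17 and 4.00 and triadimefon mice 4.00, 5.14 and 4.07 against 4.50, 4.00 and 4.00 in their controls. The propiconazole difference of 0.85 was not called (adjusted p = 0.186), and without replicate 3 it was 1.35 and called (adjusted p = 0.024). At day 30 all control and propiconazole animals and 2 of 3 triadimefon animals were at the floor. The third triadimefon animal read 4.06. Phenobarbital mice at that time read 4.00, 4.16, 4.00, 4.08 and 5.72 against 4.00, 4.00, 4.00, 4.36 and 4.40.

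Cdk1, the kinase that drives entry into mitosis, and its partner Ccna2, cyclin A2, were higher in most treated animals at day 4 without a call. Cdk1 read 4.07, 4.58 and 4.89 in conazole controls, 7.33, 6.33 and 4.14 with propiconazole and 5.24, 6.97 and 5.83 with triadimefon. Triadimefon did not overlap the controls (difference 1.50 ± 0.53, adjusted p = 0.112), and propiconazole replicate 3 lay among the controls (1.42 ± 0.53, adjusted p = 0.0719). Without that replicate the propiconazole difference was 2.32 and called (adjusted p = 0.000864). In the phenobarbital experiment controls read 5.65, 6.65, 5.15, 5.85 and 5.94 and treated mice 6.73, 7.21, 7.34, 6.55 and 6.92. Only control replicate 2 reached the treated range. The difference was 1.10 ± 0.41, or 2.15-fold (adjusted p = 0.301). At day 30 Cdk1 read 5.13, 4.72 and 4.00 in conazole controls, 6.26, 5.75 and 5.59 with propiconazole and 5.65, 5.33 and 4.44 with triadimefon. Day 30 phenobarbital mice read 5.05, 5.51, 5.58, 5.69 and 6.81 against 5.49, 5.71, 6.07, 4.98 and 5.68.

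Ccna2 read 6.25, 6.15 and 6.55 in day 4 conazole controls, 7.25, 6.89 and 7.15 with propiconazole and 7.20, 7.23 and 7.03 with triadimefon. Both groups lay wholly above the controls, with differences of 0.78 (adjusted p = 0.137) and 0.84 (adjusted p = 0.19). Phenobarbital mice read 6.16, 6.34, 7.16, 5.75 and 6.17 against 5.03, 6.22, 6.34, 5.26 and 5.04, overlapping, with a difference of 0.74 (adjusted p = 0.288). With the mean of all probe sets of a gene in place of the brightest, this difference was 1.34 and called (adjusted p = 0.00482). A second Ccna2 probe set read 4.00 in all 3 day 4 conazole controls, 5.72, 5.62 and 4.00 with propiconazole and 4.00, 5.94 and 4.36 with triadimefon. On it the phenobarbital controls lay between 4.00 and 4.18 and the treated mice read 5.23, 6.28, 7.09, 5.17 and 6.14. That difference of 1.94 ± 0.33 was called when every probe set was tested on its own (adjusted p = 0.00113). The probe sets therefore disagreed on which triazole animals were high. Plk1, the polo-like kinase, differed by 1.27 with propiconazole, 1.06 with triadimefon and 1.18 with phenobarbital, none called. Foxm1 itself, the transcription factor of this phase, differed by -0.18 to 0.24, and Cks2 and Cdc25c by -0.12 to 0.18.

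Among the 10 members of chromosomes, spindle and checkpoint, 3 rose with propiconazole and 1 with phenobarbital at day 4. Mki67 read 4.00, 4.62 and 4.18 in conazole controls and 5.86, 7.43 and 4.56 with propiconazole. Replicates 1 and 2 were high, and replicate 3 lay within the control range. The difference of 1.68 ± 0.51 was called (adjusted p = 0.0252), and it fell to 0.94 without a call when replicate 2 was left out (adjusted p = 0.253). The call also ended without control replicate 1 or 3 (adjusted p = 0.0875 and 0.0613). Triadimefon mice read 4.46, 5.58 and 4.00. Phenobarbital mice read 6.12, 6.30, 6.50, 5.65 and 5.99 against 5.09, 5.69, 4.88, 4.01 and 4.75, with 1 control just above the lowest treated mouse, and the difference of 1.23 ± 0.39 was not called (adjusted p = 0.176). The day 30 conazole controls read 4.66, 4.35 and 4.20, propiconazole mice 4.52, 4.19 and 4.88, and triadimefon mice 4.92, 4.24 and 5.06. Day 30 phenobarbital mice read 4.08, 4.00, 4.95, 4.55 and 6.14 against 4.00, 4.77, 4.00, 4.00 and 4.26.

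Birc5 encodes survivin, a subunit of the chromosomal passenger complex, and was at the floor of 4.00 in all 3 day 4 conazole controls. Propiconazole animals read 6.49, 6.88 and 4.00, so 2 were above background and the third showed no signal. The difference was 1.79 ± 0.49 (adjusted p = 0.014), and 1.25 without replicate 2 (adjusted p = 0.128) or 1.44 without replicate 1 (adjusted p = 0.0573). With triadimefon only replicate 2 left the floor, at 5.58. Phenobarbital raised Birc5 in all 5 mice, to 5.91, 6.16, 6.83, 5.56 and 6.03, against 4.00, 5.05, 4.00, 4.00 and 4.00 in controls. The difference was 1.89 ± 0.38 (adjusted p = 0.00903), with no overlap, and the call held without any 1 of the 10 arrays. At day 30 Birc5 was at the floor on all 9 conazole arrays, and in the phenobarbital experiment treated mice read 4.00, 4.00, 4.80, 4.00 and 5.70 against 4.65 and 4 values at the floor.

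Kif11, the bipolar spindle motor, read 5.17, 4.60 and 5.01 in day 4 conazole controls, 6.04, 5.99 and 5.83 with propiconazole and 5.62, 5.90 and 5.25 with triadimefon. The propiconazole rise of 1.02 ± 0.27 (adjusted p = 0.0104) was even over the 3 animals, and all of them lay above every control and below background. It missed the threshold only without control replicate 2 among the arrays left out in turn (0.86, adjusted p = 0.0655). Phenobarbital animals read 5.46, 4.89, 5.69, 4.42 and 5.21 against 4.67, 5.29, 4.67, 4.69 and 5.23. Day 30 conazole controls read 5.42, 5.57 and 6.15, propiconazole mice 5.49, 5.81 and 5.99, and triadimefon mice 5.61, 5.76 and 5.59. The day 30 phenobarbital mice read 5.03, 5.05, 4.87, 5.09 and 5.29 against 5.20, 4.47, 5.25, 4.34 and 4.72.

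Top2a, topoisomerase II alpha, gave different answers from its probe sets. On the set with the highest mean, day 4 controls read 7.41, 5.51 and 5.65, propiconazole mice 5.88, 5.29 and 5.68 and triadimefon mice 5.53, 5.16 and 4.89, with differences of -0.57 and -1.0 and no call. Phenobarbital mice read 5.94, 5.69, 6.18, 5.56 and 5.58 against 5.10, 5.41, 5.61, 6.35 and 6.13. Day 30 values on this set were 6.00, 5.84 and 6.08 in conazole controls, 5.40, 5.90 and 5.63 with propiconazole and 5.51, 5.56 and 5.61 with triadimefon. In the phenobarbital experiment they were 5.50, 5.96, 5.43, 6.22 and 5.69 in controls and 5.39, 5.26, 5.22, 6.15 and 5.79 in treated mice. A second Top2a probe set read 5.47, 4.00 and 5.10 in day 4 controls and 6.31, 6.67 and 5.33 with propiconazole. When every probe set was tested on its own, that difference of 1.25 ± 0.38 was called higher (adjusted p = 0.029). On the same set phenobarbital mice read 6.36, 6.43, 6.34, 5.89 and 6.18 against 5.11, 5.44, 4.35, 5.31 and 5.46, with no overlap and no call (1.11 ± 0.29, adjusted p = 0.0828). The other members of this role had no call at day 4. Of these, Nusap1 and Aurkb differed most, by 0.86 and 0.80 with propiconazole and 0.95 and 0.90 with phenobarbital. Cenpa, Bub1, Bub1b and Tpx2 differed by -0.32 to 0.40 over the 3 compounds. On another Tpx2 probe set, below background, propiconazole mice read 5.65 to 5.96 against 5.08 to 5.30. Phenobarbital mice read 5.39 to 5.92 on it against 4.825 to 5.34, and triadimefon mice overlapped their controls.

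**Figure D2:**
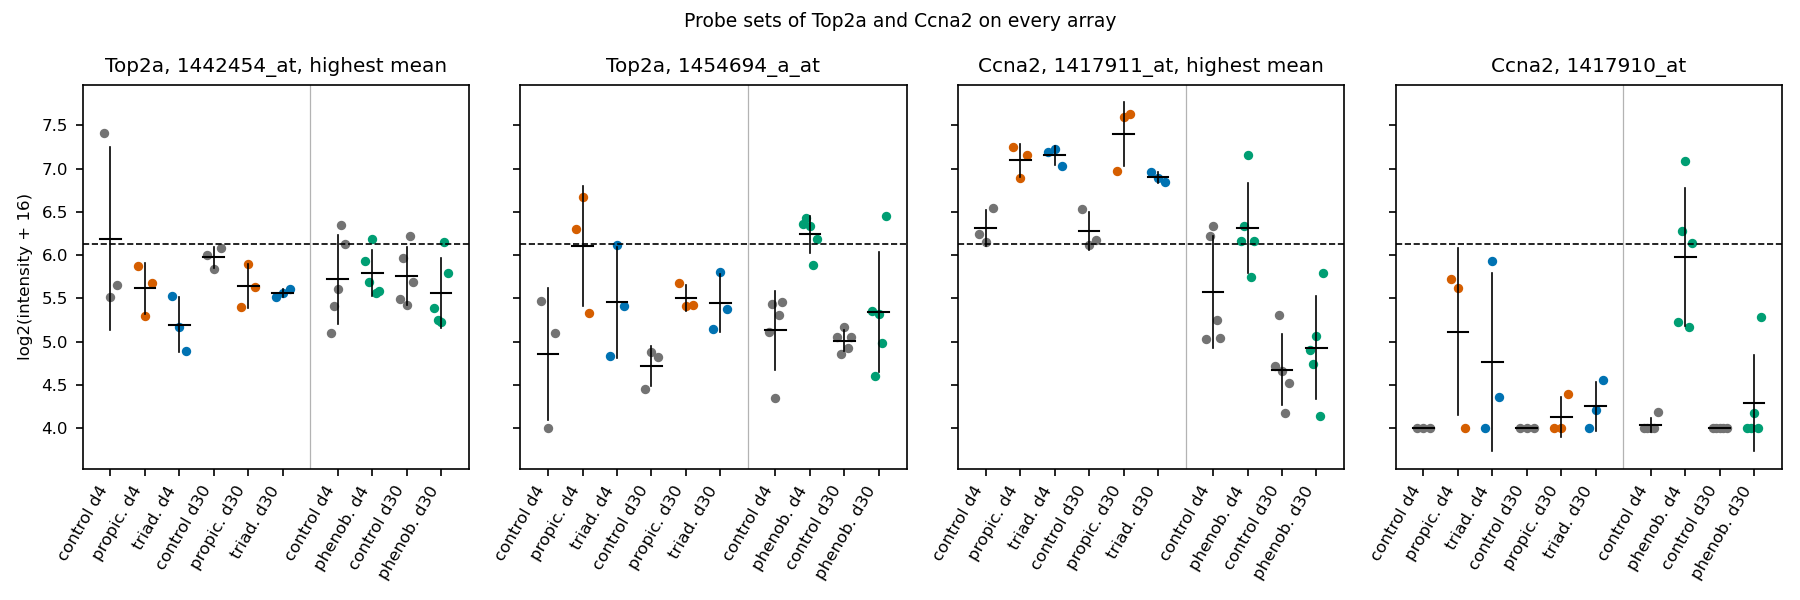
Levels on every array, in log2(intensity + 16), for Top2a and Ccna2, which are among the members whose probe sets gave different answers. Each panel is a probe set, points are animals, bars are the mean and SD of the group, and the dashed line is background. The second Top2a set shows the day 4 phenobarbital mice above their controls, at 5.89 to 6.43 against 4.35 to 5.46, while the set with the highest mean shows overlap.

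Of the 5 members of mitotic exit and cytokinesis, Kif20a, a motor of the central spindle, rose at day 4 with propiconazole and with phenobarbital. It read 4.00, 4.72 and 4.33 in conazole controls, 5.54, 5.60 and 4.70 with propiconazole and 4.26, 4.89 and 4.57 with triadimefon. The propiconazole difference of 0.93 ± 0.32 (adjusted p = 0.0472) lost its call without control replicate 1 or 3 or propiconazole replicate 1 or 2 (differences 0.75 to 0.92, adjusted p 0.0947 to 0.185). Phenobarbital mice read 5.21, 5.66, 6.38, 5.37 and 5.14 against 4.32, 4.21, 4.00, 4.08 and 4.69, with no overlap. That difference of 1.29 ± 0.25 (adjusted p = 0.0046) was called without any 1 of the 10 arrays. At day 30 Kif20a read 4.24, 4.00 and 4.00 in conazole controls, 4.05, 4.42 and 4.84 with propiconazole and 4.00, 4.88 and 4.00 with triadimefon. Day 30 phenobarbital mice read 4.38, 4.00, 4.55, 4.08 and 5.04 against 4.91, 4.71, 4.56, 4.00 and 4.05. Cdc20, the activator of the anaphase-promoting complex, differed by 1.06 (adjusted p = 0.0659), 1.20 (adjusted p = 0.0787) and 1.18 (2.27-fold, adjusted p = 0.0604) with the 3 compounds in the order propiconazole, triadimefon and phenobarbital, each just short of the threshold. Ube2c differed by 1.21 with phenobarbital and by -0.32 to 0.42 with the triazoles, and Prc1 and Kif23 by -0.21 to 0.54.

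**Figure D3:**
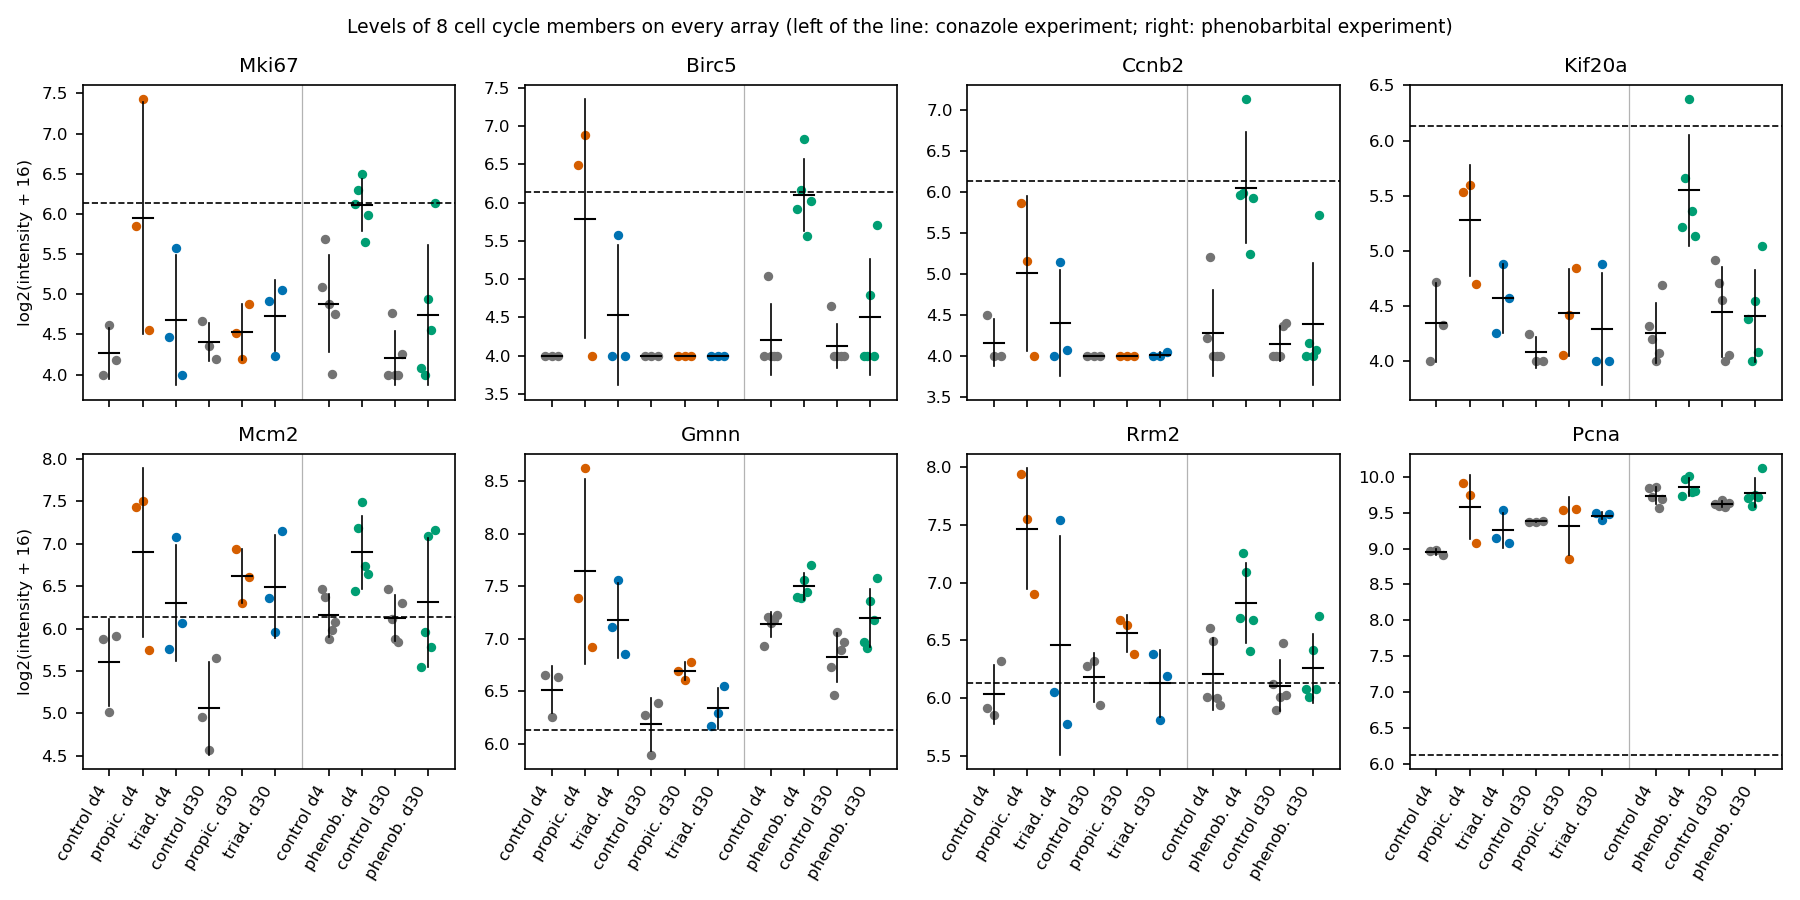
Levels on each of the 38 arrays, in log2(intensity + 16), of 8 members. Points are animals, bars are the mean and SD of each of the 10 groups, and the dashed line is the background of 6.13. Birc5 shows 2 of 3 day 4 propiconazole animals and all 5 day 4 phenobarbital animals above their controls.

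The treated animals of a group differed from each other in many members at the same time. Each array's deviation was taken from the mean of its same-day controls, and the median was formed over the members of a class. On day 4 propiconazole replicates 1, 2 and 3 the S phase median was 0.80, 0.80 and 0.14 and the mitotic median 0.93, 0.51 and 0.14. With triadimefon the S phase medians were 0.01, 0.73 and 0.06 and the mitotic medians 0.00, 0.62 and 0.15. Replicate 2 of triadimefon was the highest of its group in 11 of 12 S phase and 14 of 23 mitotic members. The 5 phenobarbital animals had S phase medians of 0.24, 0.44, 0.56, 0.14 and 0.18 and mitotic medians of 0.59, 0.76, 1.31, 0.08 and 0.56. Replicate 3 had 15 mitotic members above background, against 4 to 10 on the other 4, and was the highest of its group in 19 of 23. At day 30, phenobarbital replicate 5 had medians of 0.50 and 0.54, while the mitotic medians of the other 4 lay between -0.13 and 0.10. In each day 4 treated group, the array with the highest mitotic median was also the highest, or level with the highest, in the S phase median. At day 30 the triazole groups did not follow this. Propiconazole replicates 1, 2 and 3 had S phase medians of 0.28, -0.21 and 0.19 and mitotic medians of 0.02, 0.09 and 0.24, and triadimefon replicates had 0.21, 0.01 and 0.34 against 0.02, 0.00 and -0.08.

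**Figure D4:**
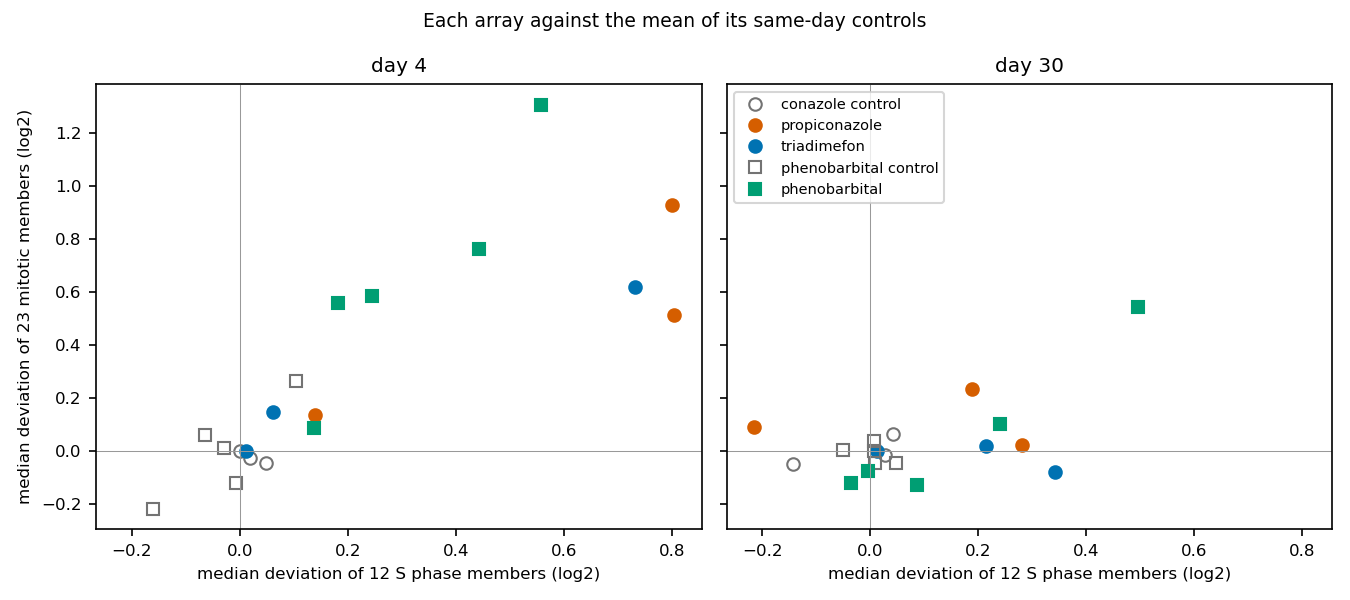
Median deviation of the 12 S phase members (horizontal axis) and the 23 mitotic members (vertical axis) from same-day controls, in log2 units, with a point for each array and 1 panel for each day. Day 4 phenobarbital replicate 3 lies highest on the mitotic axis, at 1.31, and propiconazole replicates 1 and 2 lie farthest along the S phase axis, at 0.80.

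After 30 days, few members differed from control. Propiconazole raised 3 members and lowered 1, or 10.3% against 10.8% of all genes called in either direction, a share near that over all genes (5.29% higher, 5.53% lower). Mcm2 read 4.96, 4.57 and 5.65 in controls and 6.94, 6.30 and 6.60 with propiconazole, a rise of 1.56 ± 0.44, at least 1.40-fold (adjusted p = 0.0192). Its call ended without control replicate 1 or 2 or propiconazole replicate 1 (adjusted p 0.0558 to 0.0946). Mcm5 read 5.92, 5.66 and 5.74 in controls and 6.11, 7.12 and 6.75 with propiconazole, a rise of 0.88 ± 0.29, at least 1.44-fold (adjusted p = 0.0486), which was called only without propiconazole replicate 1 among the arrays left out in turn (otherwise adjusted p 0.0701 to 0.231). Ccna2 read 6.53, 6.12 and 6.18 in controls and 6.97, 7.60 and 7.63 with propiconazole, a rise of 1.13 ± 0.35, or 2.18-fold (adjusted p = 0.0359), not called without control replicate 2 or 3 or propiconazole replicate 2 or 3 (adjusted p 0.102 to 0.12). Its second probe set did not show this, with a mean of 4.13 ± 0.23 (SD, n = 3) with propiconazole. Mcm7 was the member that fell, from 8.76, 8.59 and 8.54 to 8.30, 7.69 and 8.38, by 0.51 ± 0.17 on the log2 scale (adjusted p = 0.048). That call ended without any of the 3 controls or propiconazole replicate 2 (differences -0.55 to -0.29, adjusted p 0.0748 to 0.334). The median difference was 0.08 over all members and 0 over all genes, and 0 members were called without control replicate 2 against 6 without propiconazole replicate 1. It was 2 without control replicate 1 or propiconazole replicate 3, and 1 without control replicate 3 or propiconazole replicate 2.

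Triadimefon at 30 days raised 1 member, Mcm2, or 2.56% against 5.40% of all genes called in either direction and 2.41% called higher. Its animals read 6.36, 5.96 and 7.15 against the same controls, a rise of 1.43 ± 0.44, at least 1.28-fold (adjusted p = 0.0495). The call ended without control replicate 1 or 2 or triadimefon replicate 1 or 3 (adjusted p 0.0975 to 0.218). Mcm5 read 7.07, 6.03 and 6.35, Mcm7 8.17, 8.30 and 8.25, and Ccna2 6.97, 6.89 and 6.84, without calls. Mcm2 was thus higher with both triazoles at day 30, but these comparisons share their 3 controls, and control replicate 2 held the lowest Mcm2 value of all 38 arrays. Phenobarbital at 30 days gave 0 calls among the members with limma and 0 at an unadjusted p under 0.05, against 0.479% of all genes called in either direction. Its S phase helicase members read 5.54, 5.96, 7.09, 5.78 and 7.17 against 6.47, 6.11, 5.88, 5.84 and 6.30 for Mcm2, 6.12, 5.61, 6.51, 6.05 and 6.87 against 6.12, 5.76, 6.13, 6.20 and 5.97 for Mcm5, and 8.75, 8.55, 8.61, 8.69 and 8.93 against 8.90, 8.92, 8.87, 8.80 and 8.86 for Mcm7. In the first pair, replicates 3 and 5 were above all controls and the other 3 were not. Ccna2 read 4.91, 4.74, 5.07, 4.14 and 5.79 against 4.72, 5.31, 4.66, 4.17 and 4.52. Treated and control arrays at day 30 did not overlap for 11 higher and 3 lower members with propiconazole (11.9% and 12.4% of all genes), 6 higher and 3 lower with triadimefon (9.27% and 11.8% of all genes), and none in either direction with phenobarbital (2.24% and 1.97% of all genes).

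The difference between day 30 and day 4 was tested for each compound as a change of the change. For propiconazole 1 member passed, or 2.56% against 1.95% of all genes called in either direction. This was Mcm4, whose change at day 30 was lower than at day 4 by 1.19 ± 0.33 (95% interval -1.86 to -0.53, adjusted p = 0.0484). The count was 4 without day 4 propiconazole replicate 3. It was 0 without any of the day 4 controls, day 30 control replicate 2 or 3, day 4 propiconazole replicate 2, or day 30 propiconazole replicate 2 or 3. At an unadjusted p under 0.05 there were 10 members, all lower at day 30. For triadimefon 0 members passed with limma, with 2 at an unadjusted p under 0.05, against 1.31% of all genes called. For phenobarbital 0 passed, with 4 at an unadjusted p under 0.05, all lower at day 30, against 0.00564% of all genes called. So the calls of Ccnb2, Birc5 and Kif20a at day 4 and their lack at day 30 were not shown to differ between the days. In control feed alone, day 30 against day 4, Tpx2 was higher by 0.63 ± 0.19, or 1.55-fold (adjusted p = 0.045), in the conazole experiment, where 5.32% of all genes were called. It was not called without replicate 2 or 3 of day 4 or replicate 1 or 2 of day 30. Means on its other probe sets went from 5.87 to 7.12, from 5.20 to 5.01 and from 4.10 to 4.00. The 3′ over 5′ difference of Actb on the conazole arrays was 0.62 to 1.84 at day 4 and 0.345 to 0.47 at day 30. Day and array quality therefore cannot be fully told apart in that experiment, for Mcm4 and Tpx2 alike. In the phenobarbital experiment 0 members differed with limma, with 2 at an unadjusted p under 0.05 and 0% of all genes called.

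Propiconazole and triadimefon both carry a triazole ring. They were given at different doses, so their values are set side by side. The fit of one group against the other called 0 members at day 4, with 7 at an unadjusted p under 0.05, against 1.84% of all genes called, and 0 at day 30, with 5 at an unadjusted p under 0.05, against 3.90% of all genes called. On the values as deposited, 4 members were called lower with propiconazole than with triadimefon at day 4. The median of all genes was then -0.38 and that of the members lay 0.27 above it, against 0.24 above it after quantile normalisation. Without day 4 propiconazole replicate 3, 7 members were called higher with propiconazole, without its replicate 1 there was 1 lower, and without triadimefon replicate 2 there was 1 higher. At day 30 there were 2 calls without propiconazole replicate 1 and 1 without replicate 3. At day 4 Rrm2 lay 1.01 higher with propiconazole (95% interval 0.38 to 1.65, adjusted p = 0.0791), Mki67 1.27 higher (0.23 to 2.30, adjusted p = 0.16) and Birc5 1.26 higher (0.27 to 2.26, adjusted p = 0.148). Other members were close on average with wide intervals, such as Aurka at -0.12 (-0.66 to 0.42), Cdk1 at -0.08 (-1.16 to 1.01) and Ccna2 at -0.05 (-0.77 to 0.67). At day 30 Mcm4 lay lower with propiconazole by 0.77 (interval -1.24 to -0.30, adjusted p = 0.0552), with no overlap. Differences of over a log2 unit in either direction were therefore within reach of the error for Cdk1.

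Other genes of the cycle were read from lists by role, and their counts stand beside the shares of all genes called. At day 4 these were 7.36% higher and 6.53% lower with propiconazole, 3.75% in either direction with triadimefon and 0.677% with phenobarbital. At day 30 they were 5.29% higher and 5.53% lower, 5.40% and 0.479%. Without propiconazole replicate 2 at day 4, 4.5% of all genes were called higher and 4.91% lower. Of 18 further G1 cyclin, kinase, E2F and Myc genes, propiconazole at day 4 raised 5 and lowered none, with a median difference of 0.21 against 0.03 over all genes. Without replicate 2 the count was 2, E2f3 and E2f6. They included Skp2, which marks inhibitors for degradation, by 0.98 (adjusted p = 0.00725), E2f3 by 0.80 (adjusted p = 0.00247) and E2f2 by 0.73 (adjusted p = 0.0373). Triadimefon raised 1 of these 18, the E2F partner Tfdp1, by 0.60 (adjusted p = 0.0361), and phenobarbital none. At day 30 propiconazole raised E2f3 and E2f6, triadimefon raised E2f3 and lowered E2f7, and phenobarbital changed none. Of 14 kinase inhibitors and pocket proteins, propiconazole at day 4 raised Rbl1 by 0.72 (adjusted p = 0.0161) and lowered Rbl2, the pocket protein of resting cells (-0.50, adjusted p = 0.0152). Without replicate 2 no gene of the 14 was higher, and Rbl1 differed by 0.64 without a call (adjusted p = 0.0664), while 2 were lower. Rbl2 was also lower at day 30 (-0.66, adjusted p = 0.00192). Triadimefon lowered Cdkn1c at day 4 (-1.23, adjusted p = 0.00571) and raised Cdkn2c at day 30 (0.84, adjusted p = 0.0315). Phenobarbital changed none of the 14 at either time.

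Of 40 other measured replication genes, propiconazole at day 4 raised 4 and lowered 3, with a median difference of 0.12. In either direction 13.9% of all genes were called. Without replicate 2 there were 1 higher and 3 lower. Hells, a chromatin remodeller of replicating cells, rose by 1.39 (adjusted p = 0.000649), while Orc1 (-1.43, adjusted p = 0.0372), Rfc5 (-1.14, adjusted p = 0.00285) and Mcm10 (-0.87, adjusted p = 0.0354) fell. Without replicate 2 Hells and Rfc5 were still called, and Orc1 (-0.97, adjusted p = 0.238) and Mcm10 (-0.83, adjusted p = 0.101) were not. Hells also rose with triadimefon by 1.45 (adjusted p = 0.00141) and with phenobarbital by 0.92 (adjusted p = 0.0177) at day 4. Phenobarbital raised the histone chaperone genes Asf1b by 1.55 (adjusted p = 0.0346) and Chaf1b by 0.68 (adjusted p = 0.0315) as well, 3 of 40 in all. At day 30 propiconazole raised 1 and lowered 4 of the 40. Hells was 1.89 higher (adjusted p = 1.2e-05), and Rfc5 (-1.97, adjusted p = 4.34e-06), Orc1 (-1.95, adjusted p = 0.00539) and Tipin (-1.36, adjusted p = 0.00285) were lower. Triadimefon at day 30 raised 2, Hells by 1.22 (adjusted p = 0.00428) and Rfc4 by 0.80, and lowered 2, Tipin (-1.47, adjusted p = 0.00329) and Mcm10 (-1.02). Phenobarbital at day 30 changed none of the 40.

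Of 47 other measured mitotic genes, propiconazole at day 4 raised 10 and lowered 1, with a median difference of 0.29. Over all genes, 7.36% were called higher and 6.53% lower, and the shares for the other comparisons are those given above. Without replicate 2 there were 4 higher and none lower. Pkmyt1, which holds CDK1 inactive before mitosis, rose 3.74-fold (1.90, adjusted p = 0.0176), Ect2, a cytokinesis factor, by 1.87 (adjusted p = 0.00353), Spc24 of the kinetochore by 1.22 (adjusted p = 0.0373) and Cks1b, a CDK subunit, 2.31-fold (adjusted p = 0.00047). Of these, Ect2 and Cks1b were still called without replicate 2, and Pkmyt1 (1.79, adjusted p = 0.0635) and Spc24 (1.05, adjusted p = 0.144) were not. Triadimefon raised 2, Cks1b by 1.03 (adjusted p = 0.00634) and Cenpk by 0.94 (adjusted p = 0.011), and lowered Kif2c. Phenobarbital raised 1, Ect2, by 1.34 (adjusted p = 0.043), with a median difference of 0.24 against 0 over all genes. At day 30 propiconazole raised 6, among them Pkmyt1 4.96-fold (adjusted p = 0.00473), and lowered Kif22 (-1.38, adjusted p = 0.000357), triadimefon raised Pbk alone, and phenobarbital none. Of 17 measured growth signal genes, only Gadd45b, a gene induced by stress and mitogens, was raised in all 6 compound comparisons, from 2.41 with phenobarbital at day 30 (5.31-fold, adjusted p = 0.0143) to 5.21 with propiconazole at day 30 (at least 8.63-fold, adjusted p = 3.62e-06). Propiconazole also raised the EGF receptor ligands Tgfa by 0.64 and Btc by 0.62 and lowered Tgfb1 by 1.21 on the log2 scale at day 4. Without replicate 2 these 3 were not called (adjusted p 0.0993 to 0.319), and Gadd45b was.

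Dividing cells other than hepatocytes could carry the same transcripts, so markers of other liver and blood cells were read beside these results. At day 4 with propiconazole, 1 of 7 measured neutrophil and immature myeloid markers was called. This was S100a8, which lay above its controls at least 15.9-fold with an adjusted p of 0.0175. Without replicate 2 its difference was 3.53 and was not called (adjusted p = 0.129). It read 11.28, 12.54 and 6.56 on replicates 1, 2 and 3, against 4.86 to 5.71 in controls. S100a9 read 5.01, 8.76 and 4.63 against 4.87 to 6.65, and Ngp read 7.53 to 7.79 against 7.27 to 8.19. The summed intensity of the 7 was 2856, 6916 and 602, against 392 to 625 in controls and on replicates 1 and 2 most of it was S100a8. With triadimefon the sum was 587, 709 and 539. With phenobarbital it was 1608, 1048, 313, 284 and 1214 against 267 to 867. The value of 313 was that of replicate 3, the array with the highest mitotic median. Camp, a granule gene of maturing neutrophils, was at 0 on all day 4 arrays of the conazole experiment and on those of the phenobarbital mice. At day 30 S100a8 was called with both triazoles, and the list's sum was 424 to 4997 with propiconazole and 1879 to 2500 with triadimefon against 480 to 620. Kupffer cell markers had no call at day 4, with sums of 3310 to 4706 with propiconazole against 3531 to 4768, and of 5780 to 10118 with phenobarbital against 5351 to 9926. At day 30, 5 of 11 were higher with triadimefon (2.41% of all genes called higher), with sums of 6389 to 19969 against 5372 to 6972. None of the 11 was called with propiconazole at day 30, with sums of 6473 to 12192 against the same controls. Phenobarbital at day 30 also gave no call, with sums of 6937 to 11084 against 5227 to 7381. T and NK cell sums were 114 to 198 with propiconazole against 96 to 145 at day 4, and 88 to 113 with phenobarbital against 69 to 111, with Cd3e and Cd4 at 0 on every day 4 phenobarbital array. B cell sums were 132 to 201 against 175 to 222 and 102.3 to 171.95 against 116.3 to 153.3 in the same comparisons. No erythroid precursor marker was called at day 4. At day 30 the erythroid gene Alas2 was called higher with triadimefon (adjusted p = 0.0443), at 10.75 to 10.94 against 7.92, 8.08 and 10.95. The erythroid sum was 489 to 2302 in those controls and 1977 to 2189 with triadimefon. The cholangiocyte marker Sox9 was higher with all 3 compounds at day 4 (not called with propiconazole without replicate 2, adjusted p = 0.0899). Epcam of the same list was called higher with propiconazole at day 4 (0.38, adjusted p = 0.0251). It was still called without replicate 2 (0.43, adjusted p = 0.0308). Sox9 and Epcam were also called higher with propiconazole at day 30. The day 4 sum of the list was 495 to 560 with propiconazole against 342 to 410, and 264 to 1002 with phenobarbital against 227 to 266. At day 4 Reln of stellate cells was called lower with propiconazole, and Clec4g and Stab2 of sinusoidal endothelium were called lower with triadimefon. At day 30 Des and Lrat of stellate cells were lower with propiconazole, and Lyve1 and Cdh5 of endothelium were higher with triadimefon. The part of all these cells in the results on the members was not tested.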

How the data were processed

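The deposited values are linear intensities per probe set, 1 column per array, in the series' value table. Per the labels' protocols, 4 ug of liver RNA was labelled with biotin and hybridised to Affymetrix arrays. Which software summarised and scaled the deposited intensities was not given in the sources available here. Of these values, 21.15% lay below 0.

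Arrays were quantile-normalised, negative values were raised to 0, and the log2 of each value plus 16 was used. Of 45101 probe sets, 34958 carry 1 gene symbol in the 2016 platform annotation, 932 carry several and 9211 are unlisted here. They name 18194 genes, each read from the probe set with the highest mean over 38 arrays. Of these, 465 were flat on all arrays, none of them a member, which left 17729. limma 3.58.1 in R 4.3.3 fitted 1 mean per group (28 residual and 2.91 prior degrees of freedom, intensity trend, two-sided tests, Benjamini-Hochberg adjustment). Tested on simulated data of 17729 genes, this recovered 71% of 100 changes of 1 log2 unit and 94% of 100 changes of 2 for propiconazole at day 4. For phenobarbital at day 4 it recovered 90% and 100%. In each of these settings 15 of the other genes were called as well. Whether the rates hold for a group with an outlying array, such as day 4 propiconazole, was not tested. The changed genes were drawn from genes with a mean above background, which 17 of the 39 measured members had. The rates do not cover the dimmer members. The number of arrays limits the precision.

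The members and lists were chosen with earlier results of these data known. Values on every array are given for members called in any compound comparison and for Mki67, Top2a, Ccna2, Cdk1, Birc5, Ccnd1, Ccne1, Mcm2, Mcm6, Pcna and Rrm2, and other members by counts and ranges. Up to 4 called genes with the largest change are named per further list and comparison. Alternatives changed the scaling, pseudocount, filter, probe set choice, weights, trend, covariate, block and arrays used.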

Additional observations from a re-analysis of the deposited data

Results flagged for a closer look

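Within groups of 5 animals, 6 values of named members stood far from the rest of their group. Gmnn read 6.93 in phenobarbital control replicate 1 at day 4, where the nearest animal read 7.14. Ccnb2 read 5.21 and Birc5 5.05 in phenobarbital control replicate 2 at day 4, where the nearest animals read 4.22 and 4.00. This untreated animal also had the highest value of its group in 14 of 23 mitotic members. At day 30 Birc5 read 4.65 in phenobarbital control replicate 1, with the other 4 at 4.00. Ccnb2 read 5.72 in phenobarbital replicate 5 at day 30, where the nearest animal read 4.16, and this animal was the highest of its group in 14 of 23 mitotic and 10 of 12 S phase members. Tyms read 4.43 in phenobarbital replicate 2 at day 30, below the nearest value of 4.72. The check covered 80 groups of values. Chance alone marks about 1 in 20 where values are normally distributed. That rate does not apply to groups with most values tied at the floor of 4.00, as for Birc5.

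The change of Mcm4 with propiconazole differed between the days by -1.19 (day 30 minus day 4), in a limma test of that difference. It was 0.97 at day 4 and -0.23 at day 30.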

How the results depend on the processing

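No called direction turned under any alternative. The day 4 phenobarbital calls of Ccnb2, Birc5 and Kif20a were kept in all 23 alternatives in which each was tested (adjusted p up to 0.0492, 0.0443 and 0.0385), and they were untested where dim genes were dropped. Counts of members called follow, where they moved by over 1.5 times from 11 (propiconazole), 1 (triadimefon) and 3 (phenobarbital) at day 4, 4, 1 and 0 at day 30, 0 and 0 between the triazoles at day 4 and day 30, 1 for the propiconazole day difference and 1 for the conazole controls over time.

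With the values as deposited they were 2, 5 and 5 at day 4, 0 and 0 for the triazoles at day 30, 4 between the triazoles at day 4, 0 for the day difference and 2 for the controls. Scaling to a common median gave 0 for triadimefon at day 4 and 0 for both triazoles at day 30, the day difference and the controls. Scaling to a trimmed mean gave 1 and 2 for the triazoles at day 30, 0 for the day difference and 4 for the controls. A pseudocount of 32 gave 0 for triadimefon at day 30 and for the day difference. A pseudocount of 64 gave 0 for triadimefon at day 4, 2 and 0 for the triazoles at day 30 and 0 for the day difference. Only genes with a mean above background gave 6 for propiconazole and 0 for triadimefon at day 4 and 1 between the triazoles at day 30. The mean of all probe sets gave 0 for triadimefon at day 4, 2 and 0 at day 30, and 0 for the day difference and the controls. Leaving out probe sets marked x or s gave 2 and 0 for the triazoles at day 30, and Mcm2 and Rrm2 then differed by 0.27 and 0.41 with propiconazole at day 4. Array weights gave 0, 0 and 12 at day 4, 1 and 0 for the triazoles at day 30 and 0 for the day difference. Without the intensity trend there were 0 for triadimefon and 1 between the triazoles at day 30. With the Actb 3′ excess as covariate there were 2 for triadimefon at day 4, and 0 for triadimefon and 1 between the triazoles at day 30. With only the groups compared all counts for the triazoles fell to 0, as did the day difference and the controls, while fewer arrays estimated the spread. The cause of the other shifts was not tested.

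Replicate numbers did not pair the animals: of 22 pairs with the same number, 2 had a correlation of deviations over 0.1 (range -0.11 to 0.16). With the replicate block the counts were 7 and 0 for the triazoles at day 4, 2 and 0 at day 30, 0 for the day difference and 0 for the controls.

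With single arrays left out, counts ranged from 5 to 16 (propiconazole), 0 to 2 (triadimefon) and 3 to 6 (phenobarbital) at day 4. At day 30 they ranged from 0 to 6, 0 to 1 and 0 to 0. They ranged from 0 to 7 and 0 to 2 between the triazoles at day 4 and day 30, 0 to 4 for the propiconazole day difference and 0 to 1 for the conazole controls. For the remaining comparisons they stayed at 0. Chosen after seeing the data, leaving day 4 propiconazole replicate 2 out of the shared fit gave 3 for triadimefon at day 4 and 2 between the triazoles at day 30. Testing every probe set on its own, also chosen then, gave 12 (all higher) for propiconazole, 1 for triadimefon and 4 for phenobarbital at day 4, 2 and 0 for the triazoles at day 30, 2 for the day difference and 4 for the controls. Signal over background limits the set, since 22 of the 39 members had a mean below background and 6 of these never passed it.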
